A study of Mus musculus with 24 samples.

Results

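The genes described here encode the proteins of the mitochondrial ribosome, and they were taken as every symbol of the deposited table that reads *Mrpl* or *Mrps* followed by a number and at most one letter a, b or c. The rule found 78 genes of 55291 symbols and left out 6 pseudogene symbols of the family. Of the 78, 51 encode proteins of the large subunit and 26 proteins of the small subunit. The remaining symbol, *Mrps36*, carries a ribosomal name but its product is a component of the 2-oxoglutarate dehydrogenase complex, and it is given apart. A total of 77 genes had enough counts to be tested. The exception was *Mrpl53*, which averaged 0.186 CPM (counts scaled to a common library size with TMM), had no count in 2 libraries and shares 88% of its exon length with the gene *Gm42688* on the same strand.

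RNA-seq was performed in myoblasts carrying a scrambled shRNA (scr) or an shRNA against *Baf180* (*Pbrm1*), *Baf250a* (*Arid1a*) or *Brd9*, each of which defines one of the forms of the mammalian SWI/SNF chromatin remodeler. Each of these 4 lines was left untreated (NT) or given 100 µM CuSO4 (Cu) or 50 µM ZnSO4 (Zn), which makes 12 conditions with 2 libraries each. All lines, scr included, had received an shRNA, and the study's methods describe C2C12 cells, an established mouse myoblast line, transduced with lentivirus and kept as a drug-selected population, while the labels call the cells primary myoblasts that were knocked down by lipid transfection. The line and metal of each library were read from its title, because the treatment field contradicts the titles. The question asked of these libraries was how each knockdown (KD) changes gene expression and the response to added metal.

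Mitochondrial ribosomes translate the few mRNAs encoded by mitochondrial DNA, all of which specify subunits of the respiratory chain and ATP synthase. Their ribosomal RNAs are transcribed in the organelle, whereas every one of their proteins is encoded in the nucleus, made in the cytosol and imported. A part of these proteins descends from the bacterial ribosome and a part was added during the evolution of mitochondria. Muscle depends strongly on oxidative phosphorylation, and myoblasts expand their mitochondria when they differentiate.

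The knockdowns were first checked in the untreated libraries. *Pbrm1* measured 140.2 and 97.8 CPM in scr and 65.8 and 75.7 CPM in the *Baf180* KD, which gave a log2 fold change of −0.76. *Arid1a* measured 278 and 286 CPM in scr and 100.4 and 98.8 CPM in the *Baf250a* KD (log2 fold change −1.53), and *Brd9* 26.7 and 31.7 CPM in scr and 17.5 and 16.8 CPM in the *Brd9* KD (−0.76). All 3 targets passed the test in their own KD. The myoblast regulator *Myod1* was expressed in every untreated library, between 86.8 and 153 CPM. Total counts ran from 12719173 to 75179394 in 23 libraries and were 495778 in *Baf250a* KD Zn replicate 2, where 12613 genes had a count against at least 20114 elsewhere. Both untreated scr libraries stood apart in *Lars2*, the mitochondrial leucyl-tRNA synthetase, at 1359 and 638 CPM against at most 421 CPM elsewhere. Their 2 mitochondrial rRNAs summed to 761 CPM in replicate 1, and to 188 CPM in replicate 2, against 26.5 to 190 CPM in the other libraries. The untreated KD comparisons share these 2 scr libraries.

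Together the members took 0.230% to 0.334% of all counts, between 1259 counts in the shallow library and 218145 counts. Per kilobase of transcript, the highest mean levels over the 24 libraries belonged to *Mrpl20* (94.3 CPM per kb), *Mrpl52* (90.9) and *Mrpl12* (88.1), the last of which encodes the protein of the flexible stalk that recruits translation factors. The lowest were *Mrpl35* (5.47 CPM per kb), *Mrps25* (3.16) and *Mrpl53* (0.267), against a median of 23.1 CPM per kb over the 78. The level of *Mrpl53* cannot be separated from that of the gene it overlaps. Over the 12 conditions the highest and lowest mean CPM of a tested member differed by a median of 1.65-fold. The range was narrowest for *Mrps2* (1.23-fold) and widest for *Mrpl42* (3.04-fold), followed by *Mrps28* (2.51-fold) and *Mrps6* (2.32-fold). Of the 77 tested members, 42 had their highest condition mean in untreated scr cells, while 29 had their lowest in untreated and 20 in Zn-treated *Baf250a* KD cells. The Zn-treated *Baf250a* KD mean includes the shallow replicate 2. The same counts were not made for all genes.

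As transcripts, the members were short and of ordinary base composition. Their median length was 1224.5 nt against 2754 nt for 12678 protein-coding genes tested, and their median GC content was 50% (41.4% to 60.6%) against 50.7%. Libraries differed in how counts moved with GC content, with slopes from −0.36 to 0.34 log2 units per 10 percentage points of GC. The counts of called members in each comparison were therefore also obtained after a correction for GC content and length. Counts with DESeq2, with a library left out or of neighbouring pairs were obtained without it. On their own chromosomes, 33 members began within 1000 bp of the start of another gene on the opposite strand, and 8 shared exon sequence with another gene on the same strand, among them *Mrps34* with *Nme3* (37% of its exons) and *Mrps6* with *Gm49711* (19.9%) and *Slc5a3*.

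The promoters of some members carry the letters recognized by the factors that activate nuclear genes for mitochondria. Shown here are 250 bases before the RefSeq start, on the gene's own strand, of the 6 members called lower in all 3 untreated KDs that hold the nuclear respiratory factor NRF1 core (CGCATGCG) or the core of the ETS factor GABPA (CCGGAAG) there, with every match on either strand in capitals. The sequences are RefSeq's, assembly GRCm38.p6, and they lie at chr17:12916092-12916341 (− strand, *Mrpl18*), chr2:130563507-130563756 (+, *Mrps26*), chr8:71464676-71464925 (+, *Mrpl34*), chr19:45006443-45006692 (−, *Mrpl43*), chr7:105811088-105811337 (−, *Mrpl17*) and chr3:94443086-94443335 (+, *Mrpl9*).
Mrpl18: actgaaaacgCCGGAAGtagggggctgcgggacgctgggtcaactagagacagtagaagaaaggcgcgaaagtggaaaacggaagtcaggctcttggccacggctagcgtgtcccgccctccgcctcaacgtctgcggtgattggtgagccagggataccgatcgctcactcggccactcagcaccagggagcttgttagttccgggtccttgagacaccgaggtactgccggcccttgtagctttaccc
Mrps26: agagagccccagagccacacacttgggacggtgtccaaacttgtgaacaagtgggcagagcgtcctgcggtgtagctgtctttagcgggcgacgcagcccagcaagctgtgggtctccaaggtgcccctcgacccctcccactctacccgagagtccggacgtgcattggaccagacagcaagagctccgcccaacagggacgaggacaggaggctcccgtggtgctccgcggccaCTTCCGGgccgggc
Mrpl34: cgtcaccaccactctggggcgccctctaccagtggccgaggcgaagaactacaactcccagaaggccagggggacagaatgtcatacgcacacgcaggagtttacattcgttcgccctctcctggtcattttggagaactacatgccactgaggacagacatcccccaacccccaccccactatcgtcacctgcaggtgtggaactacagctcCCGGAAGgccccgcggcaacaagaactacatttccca
Mrpl43: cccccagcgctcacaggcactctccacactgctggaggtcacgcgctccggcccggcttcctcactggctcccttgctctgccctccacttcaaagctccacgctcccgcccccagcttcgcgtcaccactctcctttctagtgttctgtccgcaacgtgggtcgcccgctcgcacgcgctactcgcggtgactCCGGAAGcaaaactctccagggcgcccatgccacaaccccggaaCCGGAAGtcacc
Mrpl17: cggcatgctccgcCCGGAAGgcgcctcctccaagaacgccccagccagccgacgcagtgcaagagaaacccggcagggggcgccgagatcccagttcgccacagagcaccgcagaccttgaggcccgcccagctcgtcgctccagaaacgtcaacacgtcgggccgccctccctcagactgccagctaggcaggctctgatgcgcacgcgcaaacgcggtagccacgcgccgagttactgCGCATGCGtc
Mrpl9: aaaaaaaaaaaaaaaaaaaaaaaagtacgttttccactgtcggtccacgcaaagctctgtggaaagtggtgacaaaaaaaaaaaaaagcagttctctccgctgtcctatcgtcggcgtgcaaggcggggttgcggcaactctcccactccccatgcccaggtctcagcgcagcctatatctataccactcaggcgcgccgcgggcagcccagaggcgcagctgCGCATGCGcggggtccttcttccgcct
The ETS letters ended 8 bases before the start in *Mrps26*, 31 bases in *Mrpl34* and 234 bases in *Mrpl18*, and *Mrpl43* held them at 50 and 6 bases. The NRF1 letters ended 20 bases before the start in *Mrpl9* and 3 bases in *Mrpl17*. RefSeq promoters were found for 69 of the 78 members. Over the window from 250 bases before to 50 after the start, the ETS letters were in 36.2% of member promoters, against 12.3% of 16516 protein-coding promoters and 18.1% of the 10014 whose gene was tested. The NRF1 letters were in 10.1% of member promoters (2.66% and 3.95%) and the letters of YY1 (AAGATGGCG) in 11.6% (2.05% and 3.23%). No such gap was seen for the CCAAT box, in 39.1% of member promoters and 38.7% of all. GC boxes for SP1 were in 49.3% of member promoters, 48% of all and 64.8% of those tested. These matches describe letters only.

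Members were lower in each of the 3 untreated KDs than in untreated scr cells, most of all in the *Baf250a* KD. Summed over the 78 genes, untreated scr cells held 3197 and 3496 CPM. The *Baf180* KD held 2737 and 2513 CPM, the *Baf250a* KD 2362 and 2276 CPM, and the *Brd9* KD 2798 and 2667 CPM. Every KD library lay below both scr libraries, and the means were lower than that of scr by 21.6%, 30.7% and 18.3%. These sums are shares of the RNA sequenced, so that less RNA per cell and fewer expressing cells cannot be told apart.

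**Figure D1:**
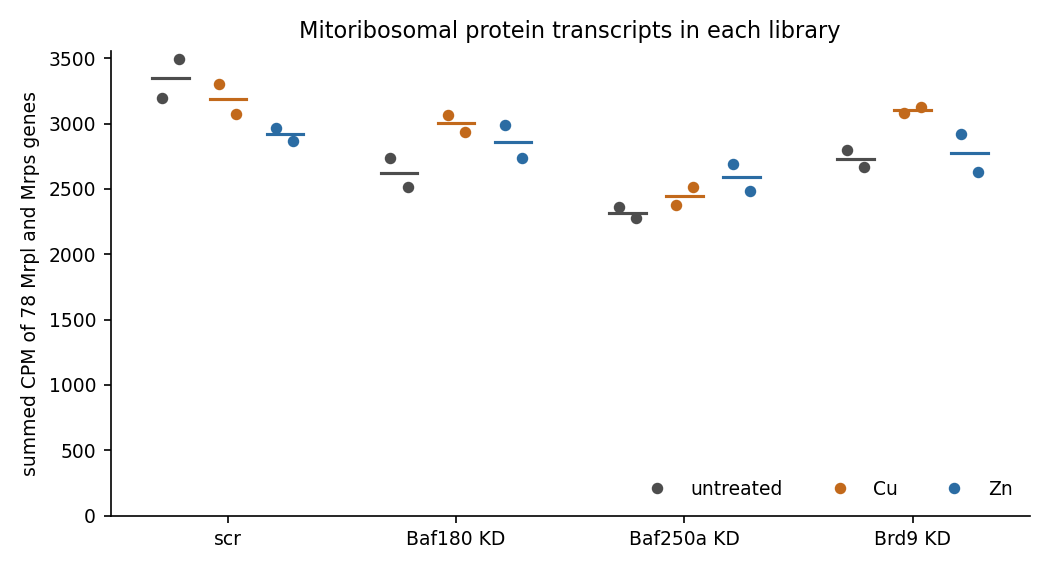
Summed TMM-scaled CPM of the 78 mitochondrial ribosomal protein genes (y axis) in the 24 libraries, grouped by line and medium (x axis); points are libraries and bars the mean of 2. Untreated scr reached 3197 and 3496 CPM, and the 6 untreated KD libraries lay between 2276 and 2798 CPM.

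In the *Baf180* KD, edgeR's quasi-likelihood test with Benjamini-Hochberg adjustment called 38 of 77 members lower, against 19.3% of all genes, and 1 higher, against 21.7%. The median log2 fold change of the members was −0.39, while that of all genes was 0.03. In the *Baf250a* KD, 59 members fell, against 28.9% of all genes, and none rose, against 28.9% of all genes, with a median of −0.55 for members and 0.00 for all genes. In the *Brd9* KD, 25 members fell, against 14.1% of all genes, and none rose, against 15.1%, with medians of −0.30 and 0.01. A positive log2 fold change was seen in 7, 4 and 11 members of the *Baf180*, *Baf250a* and *Brd9* KD. DESeq2 called 35, 53 and 22 members lower and 1, 0 and 0 higher, for which shares of all genes are not given.

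The decrease extended over both subunits. Large subunit members had median log2 fold changes of −0.40 in the *Baf180* KD, −0.56 in the *Baf250a* KD and −0.31 in the *Brd9* KD, and 27, 39 and 17 of 50 fell. Small subunit members had medians of −0.34, −0.54 and −0.27, and 11, 20 and 8 of 26 fell. Proteins with a bacterial homolog and those specific to mitochondria had nearly equal medians, with −0.54 and −0.57 in the *Baf250a* KD. No test was made between these classes.

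Correction for GC content and length left more members lower than higher in each KD but changed which ones passed. After it, 37 members were called lower and 2 higher in the *Baf180* KD, against 19.9% and 21.5% of all genes. The *Baf250a* KD had 50 lower and 5 higher, against 29.8% and 28.8%, and the *Brd9* KD 19 lower and 2 higher, against 13.1% and 14.6%. Of the members called, 30, 45 and 12 were called with and without correction. A positive corrected value was seen in 13, 9 and 22 members. Corrected medians were −0.27, −0.43 and −0.16. Across all genes the fold changes of the KDs ran against GC content, with Spearman coefficients of −0.32, −0.28 and −0.43.

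Single libraries weighed on these counts. Without *Baf180* KD NT replicate 2, 15 members were called, and without *Baf250a* KD NT replicate 2, 39 were called, in both cases all lower. The *Brd9* KD count moved with every library, to 49 (45 lower) without scr NT replicate 1, 14 without scr NT replicate 2, 4 without *Brd9* KD NT replicate 1 and 2 without replicate 2. Shares of all genes are not given for these fits. The median of the members stayed negative in all 12 of them, between −0.60 and −0.21.

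**Figure D2:**
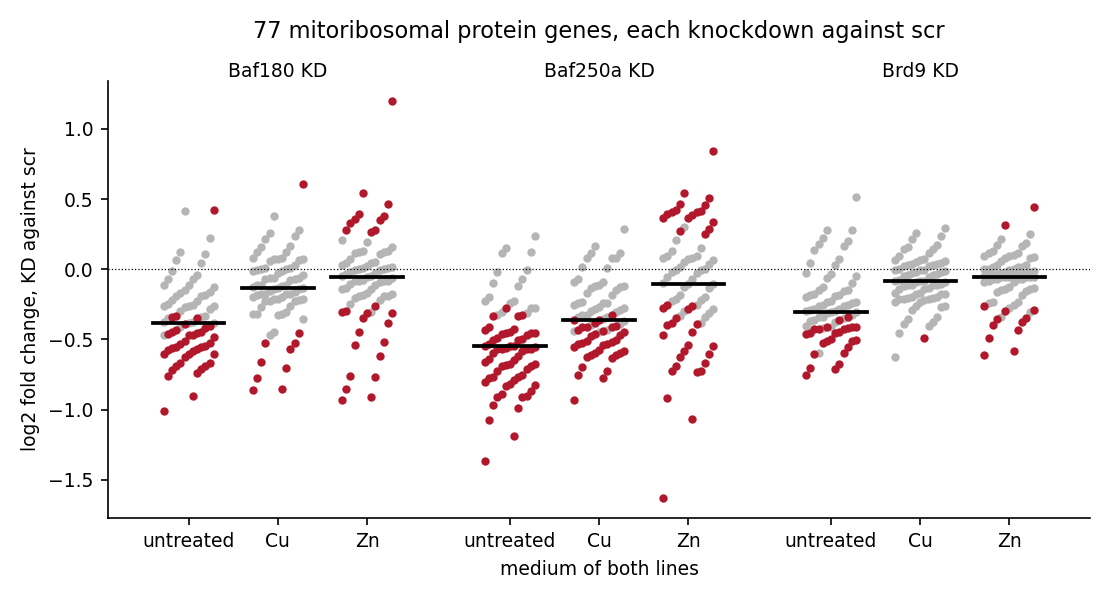
Log2 fold change of the 77 tested members in each KD against scr (y axis), in untreated, Cu and Zn medium (x axis); each point is a gene, red points have an adjusted p under 0.05 and black bars are medians. In untreated cells the medians were −0.39, −0.55 and −0.30.

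The 3 lists of decreased members were then set side by side, although the 3 comparisons share their scr libraries. Of the 77, 23 were called lower in all 3 KDs, against 10.1% of the 14024 genes tested in all 3, and 14 were called lower in 2 KDs, 25 in 1 and 15 in none. After correction 18 members were lower in all 3, against 8.98% of all genes. The 23 were 16 large subunit genes (*Mrpl2*, *Mrpl9*, *Mrpl11*, *Mrpl14*, *Mrpl17*, *Mrpl18*, *Mrpl21*, *Mrpl24*, *Mrpl28*, *Mrpl33*, *Mrpl34*, *Mrpl38*, *Mrpl43*, *Mrpl45*, *Mrpl46* and *Mrpl54*) and 7 small subunit genes (*Mrps7*, *Mrps12*, *Mrps23*, *Mrps24*, *Mrps26*, *Mrps28* and *Mrps34*). Of these, 10 were lower in all 3 KDs with the correction too, namely *Mrpl2*, *Mrpl11*, *Mrpl17*, *Mrpl24*, *Mrpl45*, *Mrps7*, *Mrps24*, *Mrps26*, *Mrps28* and *Mrps34*.

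*Mrps28*, whose product is the counterpart of bacterial protein S1, had the largest decrease in 2 of the KDs. It measured 19.6 and 22.9 CPM in untreated scr, 10.6 and 10.7 CPM in the *Baf180* KD, 8.03 and 8.90 CPM in the *Baf250a* KD and 13.2 and 12.7 CPM in the *Brd9* KD. The scr libraries were above all KD libraries, with no overlap. The log2 fold changes were −1.01 ± 0.15 (SE, n = 2 against 2; adjusted p = 0.000293, edgeR), −1.36 ± 0.15 (adjusted p = 7.76e-06, edgeR) and −0.70 ± 0.14 (adjusted p = 0.00982, edgeR), and all 3 passed after correction for GC content.

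*Mrps26*, a mitochondria-specific small subunit protein whose promoter is shown above, measured 50.4 and 64.8 CPM in scr. It was at 31.8 and 30.4 CPM in the *Baf180* KD, 32.8 and 34.0 CPM in the *Baf250a* KD and 35.7 and 34.2 CPM in the *Brd9* KD. The 3 KDs were near one another and apart from scr. Log2 fold changes were −0.91 ± 0.14, −0.82 ± 0.13 and −0.71 ± 0.14, with adjusted p of 0.000305, 0.000156 and 0.00773 (edgeR).

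*Mrps34*, a small subunit protein needed for the stability of that subunit, fell by like amounts in the 3 KDs. Its levels were 34.7 and 38.9 CPM in scr, 21.5 and 23.7 CPM in the *Baf180* KD, 23.4 and 22.2 CPM in the *Baf250a* KD and 21.5 and 21.9 CPM in the *Brd9* KD. All KD libraries were below scr (log2 fold changes −0.72, −0.72 and −0.75). Since 37% of its exons overlap *Nme3* on the same strand, part of its reads could not be assigned to it alone.

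*Mrpl38*, a mitochondria-specific protein of the large subunit's central protuberance, set the *Baf250a* KD apart. It measured 89.2 and 97.4 CPM in scr, 67.4 and 56.7 CPM in the *Baf180* KD, 43.5 and 40.3 CPM in the *Baf250a* KD and 72.0 and 66.3 CPM in the *Brd9* KD. The *Baf250a* KD libraries were the lowest, below those of the other KDs. Its log2 fold changes were −0.60 ± 0.12, −1.19 ± 0.11 and −0.42 ± 0.10. The adjusted p were 0.00156, 1.26e-06 and 0.0189 (edgeR), the last of which became 0.108 after GC and length correction.

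*Mrpl54*, another mitochondria-specific protein of the large subunit, had a similar order, from 42.7 and 49.2 CPM in scr to 33.6 and 29.1 CPM in the *Baf180* KD, 22.6 and 22.0 CPM in the *Baf250a* KD and 32.7 and 35.1 CPM in the *Brd9* KD. Its log2 fold changes were −0.57, −1.08 and −0.43. Only that in the *Baf250a* KD passed with the correction (corrected adjusted p = 0.0891, 0.000105 and 0.658, edgeR). *Mrpl34*, a small protein with a bacterial homolog, went from 49.4 and 53.1 CPM in scr to 33.1 and 27.9, 30.7 and 25.0, and 36.5 and 34.0 CPM in the same order of KDs, with log2 fold changes of −0.76, −0.91 and −0.53.

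*Mrpl18*, the central protuberance protein of the family that binds 5S rRNA in bacteria, was at 60.5 and 59.7 CPM in untreated scr. It was at 45.3 and 41.5 CPM in the *Baf180* KD, 38.3 and 31.9 CPM in the *Baf250a* KD and 42.6 and 47.0 CPM in the *Brd9* KD, so that no KD library reached scr. Log2 fold changes were −0.48 ± 0.11, −0.81 ± 0.12 and −0.41 ± 0.11, with adjusted p of 0.00427, 7.97e-05 and 0.0261 (edgeR). After GC and length correction the *Brd9* value no longer passed (adjusted p = 0.104, edgeR).

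*Mrpl45*, a large subunit protein which ties the ribosome to the inner membrane, fell in all 3 KDs (log2 fold changes −0.55, −0.69 and −0.43). *Mrpl41* passed only in the *Baf180* KD, with log2 fold changes of −0.40, −0.07 and −0.23. After correction that call was lost (adjusted p = 0.323, edgeR) and the *Baf250a* value was 0.26 (adjusted p = 0.0361, edgeR), of opposite sign. *Mrps14*, a small subunit protein with a bacterial homolog, measured 16.0 and 18.5 CPM in scr and 10.4 and 11.2 CPM in the *Baf180* KD, where it fell by 0.69 on the log2 scale (adjusted p = 0.00453, edgeR). Its log2 fold changes of −0.32 and −0.37 in the other 2 KDs passed after the correction (adjusted p = 0.00852 and 0.0241, edgeR) but not before it. Differences between KDs were not tested for these genes.

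The one member that rose in an untreated KD as counted was *Mrps6*, a small subunit protein with a bacterial homolog. After correction *Mrps6* and *Mrps36* rose in the *Baf180* KD, *Mrpl36*, *Mrpl41*, *Mrps18c*, *Mrps21* and *Mrps36* in the *Baf250a* KD, and *Mrpl13* and *Mrpl42* in the *Brd9* KD, and the average over the 3 media had 4 higher in the *Baf180* KD. *Mrps6* measured 65.5 and 71.9 CPM in scr and 92.3 and 93.3 CPM in the *Baf180* KD, where both libraries lay above scr (log2 fold change 0.42 ± 0.11, adjusted p = 0.00866, edgeR). In the *Baf250a* KD it was lower, at 55.7 and 49.9 CPM (log2 fold change −0.41, adjusted p = 0.0065, edgeR), a call lost with the correction (adjusted p = 0.399, edgeR). The *Brd9* KD libraries, 57.6 and 69.6 CPM, overlapped scr. Because *Mrps6* shares exons with *Slc5a3*, a myo-inositol transporter gene, part of its reads could not be assigned to it alone.

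**Figure D3:**
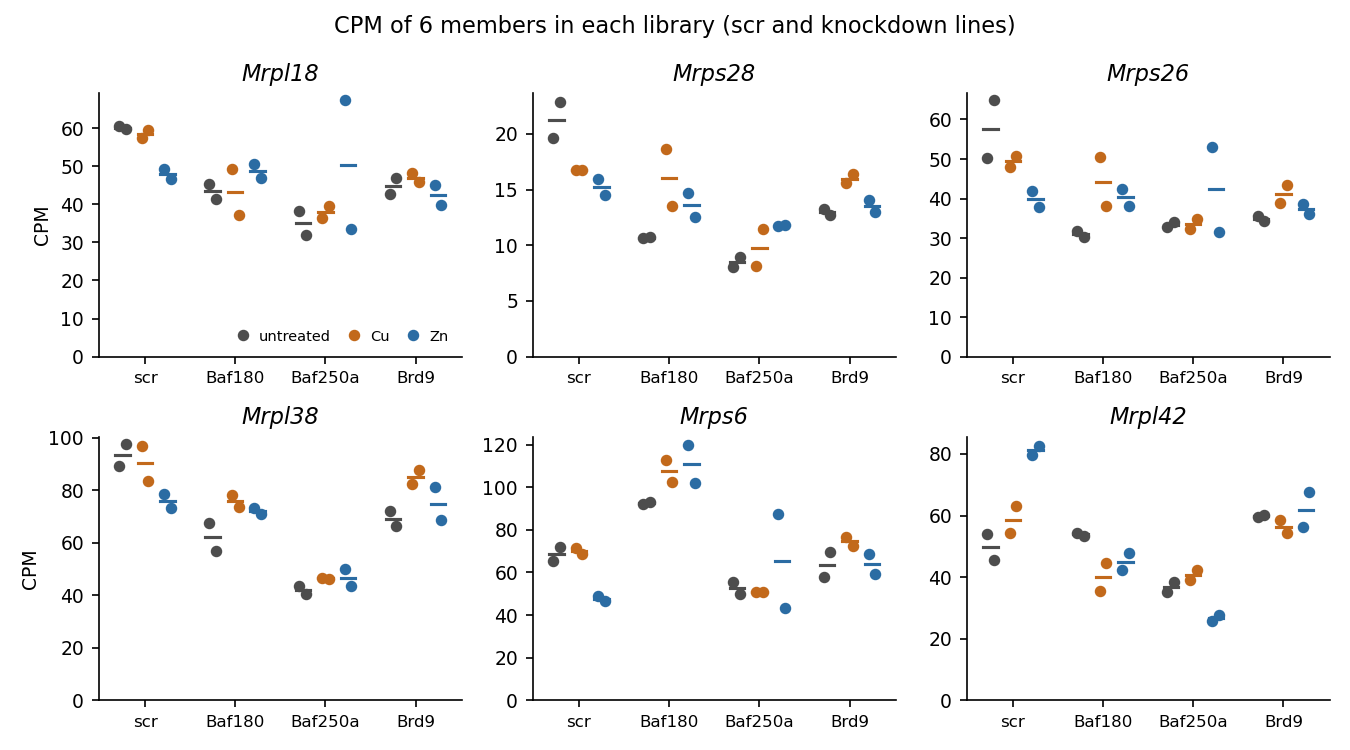
TMM-scaled CPM (y axis) of *Mrpl18*, *Mrps28*, *Mrps26*, *Mrpl38*, *Mrps6* and *Mrpl42* in the 24 libraries by line and medium (x axis); points are libraries and bars the mean of 2. *Mrps28* was at 19.6 and 22.9 CPM in untreated scr and at most 13.2 CPM in untreated KD libraries, and *Mrpl42* reached 79.7 and 82.7 CPM in Zn-treated scr.

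The KD differences were smaller among Cu-treated cells, and this comparison does not use the untreated scr libraries. Summed levels were 3301 and 3074 CPM in scr, 3064 and 2939 CPM in the *Baf180* KD, 2377 and 2517 CPM in the *Baf250a* KD and 3079 and 3129 CPM in the *Brd9* KD. The *Baf250a* KD libraries lay well below both scr libraries, those of the *Baf180* KD just below, and those of the *Brd9* KD between them. By edgeR, 35 members fell in the *Baf250a* KD, against 20% of all genes, and none rose, against 21.1%, with a median log2 fold change of −0.36. In the *Baf180* KD 9 members fell, against 10.7% of all genes, and 1 rose, against 14.2%, which was *Mrps6* (log2 fold change 0.61, adjusted p = 0.00424, edgeR). In the *Brd9* KD 1 member fell, *Mrpl24* (log2 fold change −0.49), against 5.27% of all genes, and none rose, against 6.94%. With the correction, 7 fell and 2 rose in the *Baf180* KD (12.1% and 14.4% of all genes), 29 fell and 1 rose in the *Baf250a* KD (22.4% and 23%), and 2 fell and none rose in the *Brd9* KD (7.61% and 9.25%). *Mrpl24* measured 65.5 and 68.4 CPM in Cu-treated scr and 50 and 47.1 CPM in the Cu-treated *Brd9* KD. *Mrpl38* stayed low in the *Baf250a* KD with Cu, at 46.7 and 46.2 CPM against 96.9 and 83.5 CPM in scr (log2 fold change −0.93, adjusted p = 0.00073, edgeR). *Mrps28* and *Mrps26*, which fell in all 3 untreated KDs, passed there only in the *Baf250a* KD (log2 fold changes −0.75 and −0.54).

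Among Zn-treated cells members were called in both directions. The shares called lower were near those of all genes and the shares called higher were below them, with and without correction. In the *Baf180* KD 16 fell and 11 rose, against 24.9% and 24.9% of all genes. The *Baf250a* KD had 23 lower and 17 higher, against 28.1% and 29.4%, and the *Brd9* KD 11 lower and 2 higher, against 10.6% and 12.6%. The correction gave 25 lower and 7 higher in the *Baf180* KD, against 27.7% and 21.1%, 24 and 13 in the *Baf250a* KD, against 27.2% and 23.6%, and 8 and 2 in the *Brd9* KD, against 13.6% and 12.4%. Median log2 fold changes were −0.06, −0.10 and −0.05. The 2 that rose in the *Brd9* KD, *Mrps6* and *Mrpl52*, also rose in the other KDs, with log2 fold changes of 1.20, 0.84 and 0.45 for *Mrps6* and 0.54, 0.51 and 0.32 for *Mrpl52* (*Baf180*, *Baf250a* and *Brd9* KD). *Mrps6* measured 48.7 and 46.7 CPM in Zn-treated scr and 120 and 102 CPM in the *Baf180* KD. In the *Baf250a* KD it read 87.5 CPM in replicate 1 and 43.4 CPM in the shallow replicate 2, which lay below scr. Likewise *Mrpl52* read 46.45 CPM there in replicate 1 and 31.55 CPM in replicate 2, against 32.91 and 32.08 CPM in Zn-treated scr. The largest decrease was that of *Mrpl42*, a mitochondria-specific protein of the large subunit, at 79.7 and 82.7 CPM in scr and 25.8 and 27.6 CPM in the *Baf250a* KD (log2 fold change −1.63, adjusted p = 2.5e-20, edgeR). *Mrpl1*, the protein of the mobile stalk by which spent tRNA leaves, and *Mrpl47* were lower in all 3 KDs with Zn (−0.93, −1.06 and −0.49 for *Mrpl1*, and −0.91, −0.73 and −0.40 for *Mrpl47*).

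Averaged over the 3 media in a fit of all 24 libraries, 38 members were lower in the *Baf180* KD, 57 in the *Baf250a* KD and 28 in the *Brd9* KD, against 23%, 31% and 17.3% of all genes. As counted, 4, 0 and 0 members were higher, against 26.5%, 28.9% and 20.4%. The medians were −0.18, −0.33 and −0.12, nearer to 0 than in the untreated comparison. With the correction 37, 49 and 21 members were lower and 4, 5 and 3 higher. Of all genes 25.9%, 33% and 18.6% were then lower and 27.1%, 28.8% and 22.1% higher.

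Cu changed no member in scr cells by edgeR, where 0.0333% of all genes were called in either direction. DESeq2 also called none, and 9 members had an unadjusted p under 0.05, with a median log2 fold change of −0.10 (0.01 for all genes). With Zn, scr cells had 18 members lower and 3 higher, against 7.13% and 10.5% of all genes. The 3 that rose were *Mrpl1*, from 21.5 and 15.4 to 28.6 and 31.9 CPM, *Mrpl42*, from 54.0 and 45.4 to 79.7 and 82.7 CPM, and *Mrpl50*, from 26.5 and 19.4 to 36.5 and 36.4 CPM. Their log2 fold changes were 0.74, 0.73 and 0.69 (adjusted p = 0.0348, 0.0275 and 0.0401, edgeR), and no Zn library overlapped an untreated one. The largest decreases belonged to *Mrpl2*, which lies near the peptidyl transferase centre (62.1 and 72.8 to 44.6 and 41.1 CPM, log2 fold change −0.64), *Mrpl27* (10.6 and 13.6 to 7.80 and 8.25 CPM, −0.58) and *Mrpl9* (47.7 and 62.4 to 38.2 and 36.5 CPM, −0.54). None of the 21 was called after GC and length correction, which left 0.127% of all genes called. None was called either without scr NT replicate 2, without scr Zn replicate 1 or without scr Zn replicate 2. Across all genes the Zn response of scr followed GC content with a Spearman coefficient of −0.68.

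In the *Baf180* KD, Cu raised 7 members and lowered 4, against 5.46% and 8.3% of all genes (10 and 3 by DESeq2, without a share of all genes). The largest increases were in *Mrpl27*, from 7.48 and 7.54 to 12.9 and 10.2 CPM (log2 fold change 0.58), *Mrpl28*, from 49.3 and 43.2 to 70.2 and 63.5 CPM (0.50), and *Mrps26*, from 31.8 and 30.4 to 50.5 and 38.0 CPM (0.47). The decreases were led by *Mrpl1* (19.3 and 20.8 to 13.4 and 14.3 CPM, −0.57), *Mrpl50* (25.6 and 28.01 to 17.6 and 22.0 CPM, −0.48) and *Mrpl42* (54.4 and 53.4 to 35.3 and 44.6 CPM, −0.47). Those 3 had GC contents of 41.4%, 42.3% and 46.3%, below the members' median. With the correction 3 rose and 1 fell, while 7.15% of all genes were called in either direction. Leaving out *Baf180* KD NT replicate 1 gave 3 calls, and leaving out NT replicate 2 or Cu replicate 1 gave none. Zn called no member in the *Baf180* KD by edgeR or DESeq2 (14 with an unadjusted p under 0.05, and 0.0197% of all genes called).

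**Figure D4:**
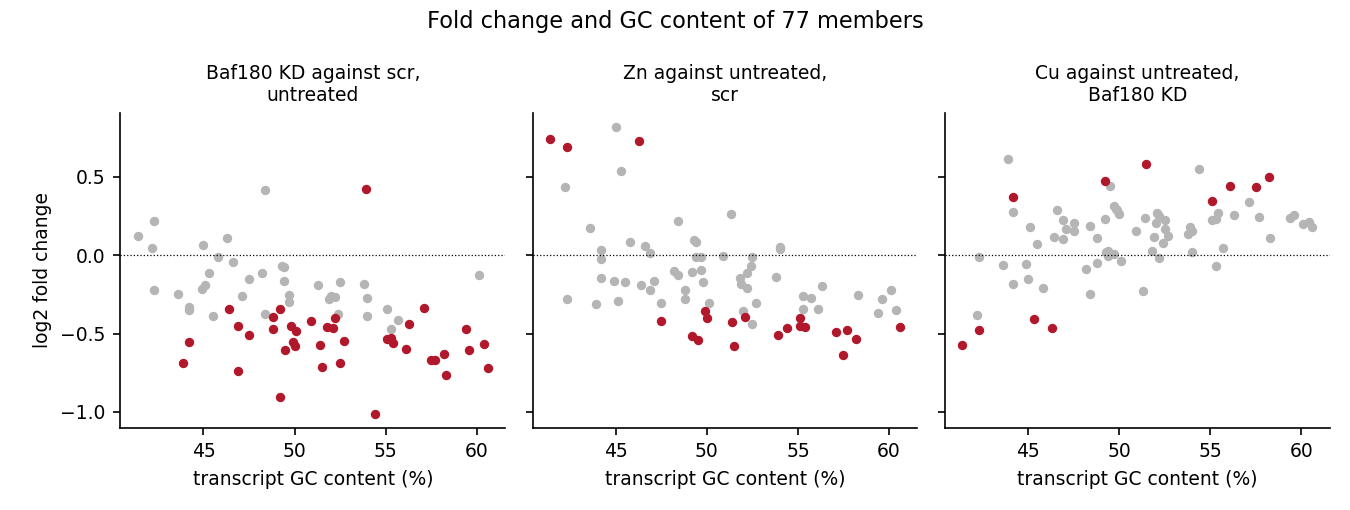
Log2 fold change (y axis) of the tested members against transcript GC content in percent (x axis) in 3 comparisons, the untreated *Baf180* KD against scr, Zn in scr, and Cu in the *Baf180* KD; each point is a gene. Over members the Spearman coefficients were −0.46, −0.55 and 0.41.

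In the *Baf250a* KD, Cu called no member by edgeR or DESeq2 (5 with an unadjusted p under 0.05, and 1.27% of all genes called). Zn raised 14 members and lowered 2, against 8.85% and 7.02% of all genes, with a median log2 fold change of 0.21, and 12 rose and 3 fell after the correction (11.4% of all genes in either direction). *Mrpl21* went from 21.1 and 20.7 to 32.9 and 55.2 CPM (log2 fold change 0.75), *Mrps23* from 37.6 and 32.1 to 57.1 and 43.4 CPM (0.67) and *Mrpl9* from 31.9 and 29.8 to 49.2 and 43.4 CPM (0.66). These 3 were picked from the members whose Zn libraries were above the untreated ones. *Mrpl42* fell from 35.1 and 38.4 to 25.8 and 27.6 CPM (−0.50), the opposite of its direction in scr. The largest log2 fold change, 0.85 in *Mrpl18*, came from 67.3 CPM in Zn replicate 1, while the shallow Zn replicate 2 read 33.5 CPM and lay within the untreated values of 38.3 and 31.9 CPM. Without Zn replicate 1 the value of *Mrpl18* was −0.07 and 1 member was called, without NT replicate 2 there were 7, and without the shallow library 24. DESeq2 called 1 member, on a scale where the median of all genes was 0.11 in place of 0.00.

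In the *Brd9* KD neither metal changed a member by edgeR or DESeq2. With Cu, 9 members had an unadjusted p under 0.05 and 0.274% of all genes were called, and with Zn none had and 0.0334% were called. Median log2 fold changes were 0.11 and −0.01.

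**Figure D5:**
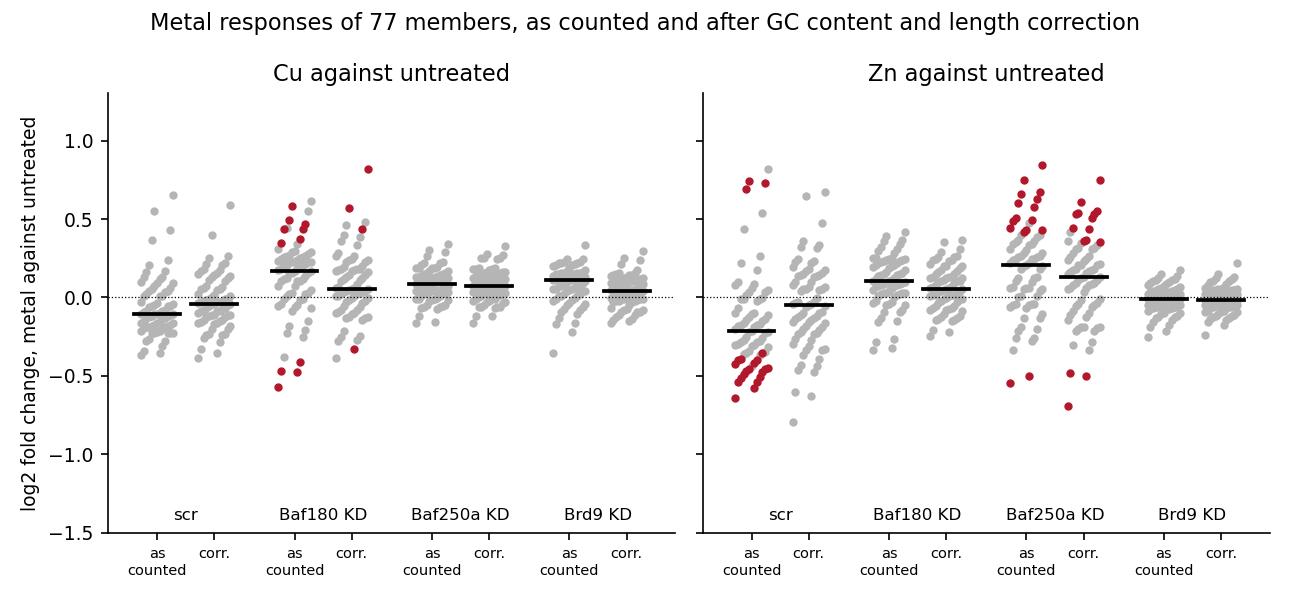
Log2 fold change of the 77 tested members with Cu or Zn against untreated cells of the same line (y axis), as counted and after GC content and length correction (x axis); points are genes, red points have an adjusted p under 0.05 and black bars are medians. Zn in scr had 21 calls as counted and none after correction.

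Whether a KD changed the response to metal was tested as the difference between the response of the KD and that of scr. For Cu in the *Baf180* KD, 14 members were higher and 4 lower, against 5.39% and 7.41% of all genes, with a median difference of 0.33 log2 units (0.06 for all genes). *Mrps28* (0.96) and *Mrpl27* (0.95) led the positive differences and *Mrpl50* (−0.97) and *Mrpl1* (−0.95) the negative ones. After correction 7 were higher and none lower (2.36% of all genes in either direction). No member was called without scr NT replicate 2 or without *Baf180* KD Cu replicate 1, 2 without *Baf180* KD NT replicate 2, 7 without scr Cu replicate 2 and 11 without *Baf180* KD NT replicate 1. For Zn, 33 were higher and 5 lower, against 16.1% and 12.6%, with a median of 0.42 (0.09 for all genes), and 16 and 2 after correction (7.26%). The positive Zn differences were led by *Mrpl2* (1.13) and *Mrpl28* (1.06), and the negative ones by *Mrpl1* (−0.98) and *Mrpl50* (−0.91). Leaving out a library gave 20 to 41 members, with the lowest count in the absence of scr NT replicate 2.

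The same difference was computed for the other KDs after the data were seen. For Zn in the *Baf250a* KD 36 members were higher and 3 lower, against 17.3% and 13.2% of all genes, and 30 and 5 after correction. For Zn in the *Brd9* KD 7 were higher and 3 lower, against 5.86% and 5.25%, and none after correction. Corrected shares of all genes are not given for either Zn difference. *Mrpl2* (1.12 and 0.74) and *Mrpl28* (1.11 and 0.69) were among the positive differences of both. For Cu no member was called in either KD by edgeR, the one tool run here, with 9 members at an unadjusted p under 0.05 in the *Baf250a* KD and 26 in the *Brd9* KD (0.0121% and 0.0363% of all genes called). All of these differences use the same untreated scr libraries, and leaving out single libraries was not run for them, nor for the KD comparisons within Cu or Zn.

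Other genes of mitochondrial translation gave the following counts in the untreated KDs, in the order *Baf180*, *Baf250a* and *Brd9*. Of all genes, 19.3%, 28.9% and 14.1% fell there and 21.7%, 28.9% and 15.1% rose. Of 5 mitoribosome proteins under other names, 2, 3 and 2 fell and none rose, and 2, 2 and 0 were lower after correction. They included *Aurkaip1*, a small subunit protein, at 55.9 and 71.4 CPM in scr and 38.5 and 34.7, 46.5 and 42.8, and 46.4 and 43.9 CPM in the KDs (log2 fold changes −0.81, −0.55 and −0.49), and *Dap3*, the small subunit's GTPase (−0.36, −0.33 and −0.42). Of 24 ribosome assembly genes, 6, 14 and 4 fell and 3, 2 and 1 rose. After correction 6, 11 and 4 were lower and 3, 4 and 1 higher. *Rcc1l*, an exchange factor of the assembly pathway, fell in all 3 (−0.56, −1.10 and −0.59), whereas *Mterf3*, a mitochondrial DNA-binding protein, rose in all 3 (0.77, 0.76 and 0.67). Of 14 translation factors, 6, 8 and 5 fell and 1, 2 and 0 rose, and 5, 8 and 4 were lower and 1, 1 and 0 higher after correction. *Tsfm*, the mitochondrial elongation factor Ts, fell in all 3, at 55.1 and 64.9 CPM in scr and 31.6 and 33.2, 25.2 and 22.8, and 38.5 and 38.9 CPM in the KDs (−0.90, −1.35 and −0.62). *Taco1*, the translational activator of cytochrome c oxidase subunit I, fell as well (−0.63, −1.06 and −0.52). Of 17 mitochondrial tRNA synthetases, 5, 11 and 4 fell, *Lars2* among them, and 1, 1 and 0 rose. With the correction 6, 12 and 4 were lower and 1, 1 and 0 higher.

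Regulators of these genes did not share one direction. Of 14 genes for mitochondrial transcription and its nuclear regulators, 6, 8 and 5 fell and 1, 2 and 2 rose, against the shares of all genes given above. After correction 6, 10 and 3 were lower and 2, 1 and 1 higher. *Ppargc1a*, the coactivator of mitochondrial biogenesis, measured 29.1 and 26.3 CPM in scr, 12.8 and 11.9 CPM in the *Baf180* KD, 4.04 and 2.64 CPM in the *Baf250a* KD and 9.72 and 10.5 CPM in the *Brd9* KD. All KD libraries were below scr (log2 fold changes −1.18, −3.06 and −1.44). Its partner *Esrra*, an orphan nuclear receptor, fell too (−0.76, −1.05 and −0.81). *Gabpa*, the ETS factor whose letters are capitalized above, rose in each KD (0.63, 0.47 and 0.57, adjusted p = 0.0045, 0.00944 and 0.0326, edgeR), a call kept after correction in the *Baf180* KD alone (corrected adjusted p = 0.0141, 0.269 and 0.133, edgeR). *Nrf1* had log2 fold changes of −0.19, −0.43 and −0.03, of which that of the *Baf250a* KD passed. *Tfam*, the packaging protein of mitochondrial DNA, fell in the *Baf180* and *Baf250a* KDs (−0.34 and −0.85) and was at 0.01 in the *Brd9* KD.

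Members with and without ETS letters in the promoter had like medians. Among the 23 that fell in all 3 KDs, 9 of the 19 with a promoter had the letters (47.4%), against 16 of the 50 others (32%). Median log2 fold changes with and without the letters were −0.39 and −0.39 in the *Baf180* KD, −0.51 and −0.55 in the *Baf250a* KD and −0.31 and −0.30 in the *Brd9* KD. No test was made of these shares.

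Neighbours that start next to a member were counted in 31 pairs in which both genes were tested. *Mrpl46* and *Mrps11*, both members, are each other's neighbour, and their pair was counted from each side. In the *Baf250a* KD 22 members and 17 partners were called, where 57.8% of all genes were called in either direction, and both genes in 14 pairs. In the *Baf180* KD 15 members and 13 partners were called, both in 5 pairs (41% of all genes), and in the *Brd9* KD 11 and 7, both in 3 pairs (29.2%). *Mrpl54* and *Apba3*, whose starts lie 26 bp apart, both fell in all KDs, with log2 fold changes of −0.58, −0.83 and −0.57 for *Apba3*. *Mrps34* fell while *Eme2*, 29 bp away, did not pass (−0.25, 0.01 and −0.05). *Tcp1*, a chaperonin subunit gene that starts 644 bp from *Mrpl18*, fell in the *Baf180* and *Baf250a* KDs (−0.39 and −0.68) and had a value of −0.11 in the *Brd9* KD.

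Several other measures also differed between untreated KD and scr cells, not all in the direction of the members. In these comparisons 19.3%, 28.9% and 14.1% of all genes fell and 21.7%, 28.9% and 15.1% rose. The mitochondrial rRNAs were lower in all 3 KDs, with medians of −3.25, −2.22 and −3.80, and *Lars2* by −2.97, −5.24 and −4.89 on the log2 scale. These values are measured from the untreated scr libraries, where the rRNAs summed to 761 and 188 CPM and *Lars2* was at 1359 and 638 CPM. In Cu- and Zn-treated scr libraries the rRNAs summed to between 37.15 and 60.44 CPM, and *Lars2* was at 25.4 to 34.6 CPM. The study had removed rRNA from the RNA before sequencing. Of 10 mitochondrial mRNAs, 6, 6 and 7 were higher and 0, 1 and 0 lower as counted, while 1, 0 and 3 were higher and 1, 3 and 1 lower after correction. Of 81 cytosolic ribosomal protein genes, 56, 72 and 40 were lower, with medians of −0.48, −0.85 and −0.36 (40, 65 and 23 lower after correction). Of 7 myoblast markers 3, 6 and 3 fell and 1 rose in each KD. Summed fibroblast markers went from 6.19 and 7.82 CPM in scr to between 33.3 and 37.1 CPM in the *Baf180* KD, 84.3 and 92.1 CPM in the *Baf250a* KD and 12.02 and 12.97 CPM in the *Brd9* KD. Of 4 fibroblast markers 2, 3 and 2 were tested, and 2, 3 and 1 of them rose. Summed myotube markers went from 31.1 and 32.6 CPM in scr to between 94.9 and 102 CPM, 33.2 and 37.4 CPM, and 13.03 and 15.3 CPM. Of the 3 adipocyte markers *Cebpa*, a transcription factor not limited to that cell type, was the one tested and rose in all 3 KDs (log2 fold changes of at least 1.49), while *Adipoq* and *Plin1* stayed at or below 0.188 CPM. Markers of macrophages, endothelium and epithelium summed to at most 6.14, 5.46 and 0.848 CPM in any library. The part of these differences in the result was not tested.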

How the data were processed

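RNA was measured in 24 libraries of 4 lines and 3 media. The deposited table holds raw read counts per gene. According to its methods, the study removed rRNA with antisense oligonucleotides and RNase H, made strand-specific libraries, aligned to mm10 with STAR, kept uniquely mapped reads and let the authors count read pairs on the reverse strand with featureCounts. STAR, deepTools and DESeq2 are also named in the submitters' processing notes. Versions of these tools are not given in the sources used here. Unique mapping lowers the counts of genes with near-identical copies.

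Counts were tested with edgeR 4.0.16 (TMM scaling, filterByExpr with a minimum count of 10, quasi-likelihood test, Benjamini-Hochberg adjustment over all genes, threshold 0.05) in R 4.3.3. Each KD was compared with scr in a fit of the 4 libraries concerned. Metal was compared with untreated in a fit of all libraries of the line (untreated, Cu and Zn). Differences between responses used all 24 libraries. Levels are CPM scaled by TMM over 24 libraries. GC content and transcript length came from GENCODE M21 (GRCm38), and the correction added splines with 5 degrees of freedom for each. DESeq2 1.42.0, other scaling, other filters, other sets of libraries, a replicate block and leaving out each library were tried as alternatives, and the scripts were tested on simulated data. Replicates are described as independent biological replicates, and 2 per condition limit what can be called. The p-values set each difference against the spread between these libraries.

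The members and all gene lists were chosen with earlier results of these data known. Members named are *Mrpl18*, *Mrpl41*, *Mrpl45* and *Mrps14*, which gene lists of the study hold, up to 3 called members with the largest change in each direction of a comparison whose CPM did not overlap between groups (2 for differences between responses), the 3 highest and 3 lowest in level per length, those called alike in all 3 untreated KDs, and any not tested. From the other lists, the targeted genes and up to 3 called genes of largest change were allowed. KD comparisons within each metal and the differences between responses for the *Baf250a* and *Brd9* KDs were added after the data were examined, and genes named from them, the neighbours and the remaining genes of other lists were chosen after their values were seen. Promoters came from RefSeq (GRCm38.p6).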

Additional observations from a re-analysis of the deposited data

Results flagged for a closer look

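Results are listed here where the response to a metal differed between a KD and scr by a test of the difference itself (edgeR's quasi-likelihood test, Benjamini-Hochberg adjusted). The Cu response of the *Baf180* KD differed from that of scr in 18 members, 14 higher and 4 lower (5.39% and 7.41% of all genes, and 7 and 0 members after correction), with log2 differences of 0.96 for *Mrps28*, 0.95 for *Mrpl27*, −0.97 for *Mrpl50* and −0.95 for *Mrpl1*. The Zn response of the *Baf180* KD differed in 38 members, 33 higher and 5 lower (16.1% and 12.6% of all genes, and 16 and 2 members after correction), with log2 differences of 1.13 for *Mrpl2*, 1.06 for *Mrpl28*, −0.98 for *Mrpl1* and −0.91 for *Mrpl50*. The Zn response of the *Baf250a* KD differed in 39 members, 36 higher and 3 lower (17.3% and 13.2% of all genes), and that of the *Brd9* KD in 10, 7 higher and 3 lower (5.86% and 5.25%), a share near that of all genes. After GC content and length correction 30 members were higher and 5 lower in the *Baf250a* KD and none was called in the *Brd9* KD. Corrected shares of all genes are not given for either. All 4 differences use the 2 untreated scr libraries, which also had the highest *Lars2* (1359 and 638 CPM), and the part of this in the differences was not tested.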

How the results depend on the processing

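Counts of called members moved by over 1.5 times as follows, and the cause was not tested where the setting itself does not show it. The counts in this section are given without the shares of all genes called in the same fits. The GC content and length correction gave 0 for Zn in scr, 4 for Cu in the *Baf180* KD, and 7 and 18 for the Cu and Zn differences of the *Baf180* KD. A fit of all 24 libraries gave 38 for Zn in scr and 9 for Zn in the *Baf250a* KD, DESeq2 gave 1 for the latter, and 12 libraries of both lines gave 11 for the Cu difference. A filter of at least 1 count gave 2 for Cu in scr, 2 for Zn in the *Baf180* KD and 1 for Cu in the *Brd9* KD. In the comparisons of KDs within a metal, the correction moved the lower members from 16 to 25 for Zn in the *Baf180* KD. Leaving out 1 library in turn gave 15 to 58 members in the untreated *Baf180* KD, 39 to 67 in the *Baf250a* KD and 2 to 49 in the *Brd9* KD. It gave 0 to 21 for Zn in scr, 0 to 16 for Cu in the *Baf180* KD, 1 to 24 for Zn in the *Baf250a* KD, 0 to 27 for the Cu difference and 20 to 41 for the Zn difference. In these fits a lone library was assumed to vary like the others.

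The labels do not tie a number to a shared culture or day, and the numbers were not treated as pairs: the deviations of same-numbered libraries correlated between −0.34 and 0.41, with 0.18, 0.41 and 0.24 in the *Baf180* KD, the one line where all exceeded 0.1, and only 2 numbers exist per condition. A replicate block gave 0 members for Zn in scr, 24 for Cu in the *Baf180* KD and 2 for Zn in the *Baf180* KD, and 35, 55 and 17 in the untreated KDs. It moved no other count by over 1.5 times.

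Of 142 fold changes of named members, 1704 values under alternatives comprised 1282 with the same direction and side of the threshold, 418 no longer past it and 4 reversed. The 4 were *Mrpl9* in the *Brd9* KD (0.002, average over the 3 media with correction, chosen after the data were seen) and, for Zn in the *Baf250a* KD without Zn replicate 1, *Mrps26* (−0.078), *Mrpl18* (−0.066) and *Mrpl2* (−0.05), whose values with another library left out reached 0.664, 0.964 and 0.473. In a window of 250 bases before the start alone, the ETS letters were in 24.6% and the YY1 letters in 2.9% of member promoters. Depth limits the shallow *Baf250a* KD Zn library, where all members together had 1259 counts.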
